A study of Mus musculus with 16 samples.

Results

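The genes described here are the Myc, Max and Mxd network of mouse embryonic stem cells (ESCs): Myc, Mycn, Mycl, Max, Mxd1, Mxi1, Mxd3, Mxd4, Mnt and Mga. These 10 genes were chosen by name from the 35968 genes of the summed tables, and all 10 passed the filter on low counts that left 18944 genes for testing. Poly(A)-selected RNA was sequenced from wild-type (WT) ESCs and from Dgcr8 knockout (KO) ESCs. The KO line, named Dgcr8 KO24 in the labels without saying whether it is 1 clone, is labelled as a knockout of Dgcr8, whose protein is needed to cut most microRNA precursors. Each genotype was grown either in normal ESC culture or in culture with an inhibitor of the kinase mTOR (mTORi, sampled on day 2), a treatment that puts ESCs into a paused state resembling embryonic diapause. The 4 groups, called WT normal, WT paused, KO normal and KO paused below, held 4 libraries each. The series is about microRNAs in induced pausing and diapause, and these libraries compare the mRNA of the 2 genotypes.

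Myc, Mycn and Mycl encode transcription factors that cannot bind DNA alone. Each pairs with Max, and the pair binds the E-box, whose best known form is CACGTG, and activates genes for ribosome production, nucleotide synthesis and growth. Mxd1, Mxi1 (also called Mxd2), Mxd3, Mxd4 and Mnt compete for Max, bind the same sites and recruit SIN3 corepressors. Mga, a very large protein, also pairs with Max and carries it into a Polycomb complex, PRC1.6, that keeps germline genes silent in ESCs. In mouse ESCs Myc and Mycn are both active and can largely replace each other, and loss of both has been described to give a dormant state like diapause.

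Libraries held 88377380 to 116646028 estimated counts. Levels are given as CPM (counts scaled to a common library size) with TMM factors (trimmed mean of M values), and a gene is said to rise or fall where its adjusted p was under 0.05 in edgeR's quasi-likelihood test, with Benjamini-Hochberg adjustment over all genes. The labels do not say that replicates came from separate cultures, so p-values reflect how far these libraries spread, and that spread may be technical. In bulk RNA, fewer cells of a type and less RNA per cell cannot be told apart. In 3 groups, replicates 1 and 2 stood apart from replicates 3 and 4 (median chi-square per gene of at most 2.71 within these pairs and at least 3.44 across them), and in KO paused replicates 1 and 3 stood apart from 2 and 4. All 12 ESC markers were present in every group, with a summed level of 6470 to 8229 CPM. The 10 markers of fibroblast feeders, 6 to 8 of which were under 1 CPM, summed to 16.8 to 44.9 CPM. The 8 mesoderm and neural markers, 4 or 5 of which were under 1 CPM, summed to 123 to 154 CPM in WT normal. Their sum was 117 to 138 CPM in WT paused, 151 to 171 CPM in KO normal and 119 to 136 CPM in KO paused. The summed feeder markers were higher in KO normal (39.7 to 44.9 CPM) than in WT normal (18.3 to 22.4 CPM). Gene by gene, 2 of the 5 feeder markers tested were called higher and 3 lower (median log2 -0.35). The summed endoderm markers were lower in KO normal (at most 17.4 against at least 36.4 CPM), as were trophoblast markers (24.9 to 29.9 against 65.8 to 68.0 CPM). Of 7 endoderm markers tested 1 was called higher and 6 lower, and of 8 trophoblast markers 1 higher and 6 lower. Over all genes tested the shares were 34.1% higher and 34.1% lower. In paused culture the feeder markers were at 28.4 to 30.3 CPM in KO and 16.8 to 17.6 CPM in WT, and the endoderm markers at 15.7 to 18.5 and 30.3 to 46.7 CPM. Here 2 of the 5 feeder markers tested were called higher in KO and 2 lower, and all 7 endoderm markers tested were called lower. Over all genes tested 30.8% were higher and 34.5% lower. The summed trophoblast markers were lower in WT paused (33.6 to 39.3 CPM) than in WT normal and higher in KO paused (45.4 to 52.4 CPM) than in KO normal. The interaction was positive for 5 and negative for 1 of the 8 (17.4% and 24.5% of all genes). On pausing 1 of the 8 rose and 6 fell in WT cells (33.3% and 27.5% of all genes). In KO cells 3 rose and 2 fell (34.4% and 32.8%). No marker of these lists was at 0 in all libraries, and their part in the results below was not tested. The Y-linked gene Ddx3y was at 83.9 to 107 CPM in WT libraries and at 0.130 to 0.355 CPM in KO libraries, so KO and WT libraries differ in more than Dgcr8, and genotype and line cannot be told apart. Dgcr8 itself was at 45.3 to 56.2 CPM in WT and 173 to 256 CPM in KO libraries. The deleted part of the gene is not given in the sources used here, so this level checks nothing.

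Pausing in WT cells raised 7 of the 10 members (Myc, Mycl, Max, Mxd1, Mxd3, Mxd4 and Mnt) and lowered 1 (Mycn), while 60.7% of all genes tested were called (33.3% higher and 27.5% lower). The median log2 fold change of the members was 0.38, against 0.04 for all genes tested. Pausing in KO cells raised Mycn, Mxd1, Mxd3, Mnt and Mga and lowered Myc, Max and Mxi1, where 67.2% of all genes were called (34.4% higher, 32.8% lower) and the members' median was 0.13 against 0.02. The 2 responses differed, by the test of the interaction, for 6 of the 10 members, against 41.9% of all genes: Mycn was the member with a more positive response in KO cells (17.4% of all genes), and Myc, Max, Mxd1, Mxi1 and Mxd4 had a more negative one (24.5%). The groups did not overlap for 8 of 10 members in WT pausing (54% of all genes) and for 7 in KO pausing (64%).

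Between genotypes, 3 members were higher in KO normal than in WT normal (Mycl, Max and Mxi1) and 5 were lower (Myc, Mycn, Mxd1, Mxd3 and Mga), with 68.2% of all genes called (34.1% in each direction). Under pausing Mycl was higher in KO cells and Myc, Mxd1, Mxd3 and Mxd4 were lower, with 65.4% of all genes called (30.8% higher, 34.5% lower). The groups did not overlap for 6 members in each culture, against 60.5% of all genes in normal and 63.4% in paused culture. The comparisons share libraries, so their values are given side by side. With library totals in place of TMM, the median of all genes rose from 0.04 to 0.19 in the WT pausing response and from 0.02 to 0.17 in the KO one, the share of higher among called genes went from 54.8% to 69.2% and from 51.2% to 64.1%, and in KO cells the estimates of Max and Mxd4 turned from negative to positive (0.013 and 0.04).

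**Figure D1:**
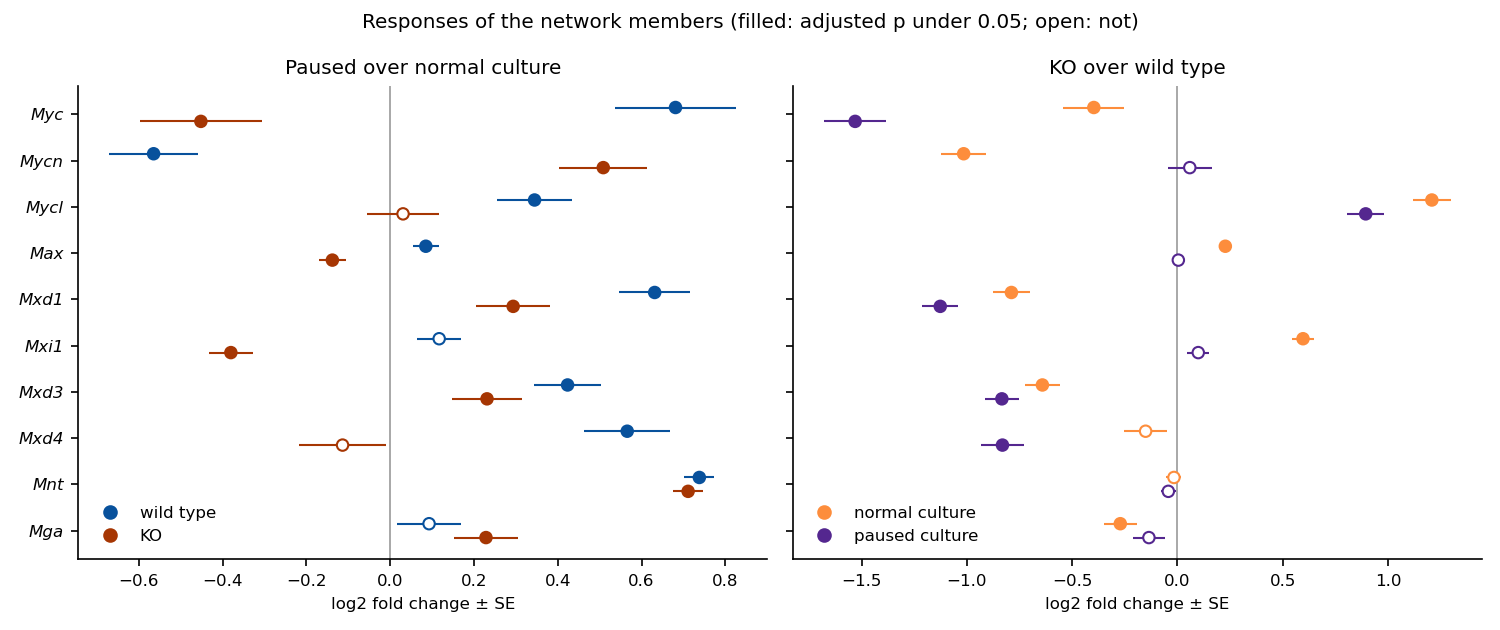
Log2 fold change with its standard error for each of the 10 genes, paused over normal culture in each genotype (left) and KO over wild type in each culture (right). Filled points have an adjusted p under 0.05. Myc and Mycn lie on opposite sides of 0 in the 2 genotypes on the left, while the 2 points of Mnt lie together at 0.74 and 0.71. With library totals in place of TMM the KO points of Max and Mxd4 on the left lie above 0.

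Myc (ENSMUSG00000022346.15; GRCm38 chromosome 15, 61985391 to 61990374, plus strand), the founding member of the family, responded to pausing in opposite directions in the 2 genotypes. Its level was 80.7, 94.7, 119.6 and 119.7 CPM in WT normal and 165.7, 159.6, 173 and 167 CPM in WT paused, in replicates 1 to 4. In KO normal it was 67.0, 69.6, 86.9 and 91.3 CPM, and in KO paused 61.5, 46.4, 69.4 and 52.9 CPM. All 4 WT paused libraries stood above all WT normal ones, whereas the KO groups overlapped. Myc rose 1.603-fold on pausing in WT cells (log2 0.68 ± 0.14 SE, adjusted p = 0.00086 in edgeR) and fell in KO cells (log2 -0.45 ± 0.15, adjusted p = 0.013). The difference of the 2 responses was -1.13 ± 0.21 on the log2 scale (adjusted p = 0.00052). Paused KO cells held 2.89-fold less Myc mRNA than paused WT cells (log2 -1.53 ± 0.15, adjusted p = 3.7e-07), while in normal culture the log2 difference was -0.40 ± 0.15 (adjusted p = 0.025). The log2 rise in WT cells ran from 0.50 to 0.89 over 19 alternative settings and was called in all of them. The fall in KO cells was not called with library totals (log2 -0.30, adjusted p = 0.075) or with replicates 1 and 2 alone (-0.34, adjusted p = 0.11). The lower level in KO normal was lost when WT normal replicate 3 (log2 -0.33, adjusted p = 0.07) or 4 (-0.32, adjusted p = 0.088) or KO normal replicate 1 (-0.32, adjusted p = 0.079) or 2 (-0.35, adjusted p = 0.068) was left out.

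Mycn (ENSMUSG00000037169.15; chromosome 12, 12936093 to 12941914, minus strand), known for its amplification in neuroblastoma and its role in the early embryo, gave the mirror pattern. WT normal libraries held 248, 262, 238 and 245 CPM, and WT paused ones 142.6, 141.8, 198 and 189 CPM. KO normal libraries held 116, 106, 131 and 139 CPM, and KO paused ones 173, 164, 188 and 175 CPM. In each genotype the paused and normal libraries did not overlap, but in opposite order. Mycn fell 1.48-fold on pausing in WT cells (log2 -0.56 ± 0.11, adjusted p = 0.00023 in edgeR) and rose 1.42-fold in KO cells (0.51 ± 0.11, adjusted p = 0.00053). The difference of the responses was 1.07 ± 0.15 (adjusted p = 4.3e-05). The summed trophoblast markers given above moved in the same directions, though gene by gene their median log2 fold change was -0.69 in WT and -0.09 in KO cells. Their part in this result was not tested. In normal culture KO cells held 2.02-fold less Mycn mRNA (log2 -1.02 ± 0.11, adjusted p = 4.6e-07), and under pausing the groups overlapped (0.06, adjusted p = 0.65, 95% interval -0.15 to 0.26). WT paused replicates 1 and 2 stood well below 3 and 4, and the fall in WT cells was -0.84 within replicates 1 and 2 and -0.33 within 3 and 4. The KO against WT difference under pausing was 0.24 (adjusted p = 0.00073) within the first pair and -0.09 (adjusted p = 0.08) within the second.

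Mycl (ENSMUSG00000028654.13; chromosome 4, 122995652 to 123002485, plus strand), the least abundant of the family here, was higher in KO cells in both cultures. It was at 9.25, 8.31, 10.01 and 10.4 CPM in WT normal and 11.0, 10.7, 13.2 and 13.2 CPM in WT paused. KO normal libraries held 24.4, 23.1, 19.8 and 20.3 CPM, and KO paused ones 20.2, 22.4, 23.4 and 23.4 CPM. Every KO library was above every WT library. The difference was 2.31-fold in normal culture (log2 1.21 ± 0.09, adjusted p = 8.6e-10 in edgeR) and 1.86-fold under pausing (0.89 ± 0.09, adjusted p = 5.3e-08). Mycl rose on pausing in WT cells (log2 0.34 ± 0.09, adjusted p = 0.0027). In KO cells its log2 fold change was 0.03 (adjusted p = 0.77), being -0.16 within replicates 1 and 2 (adjusted p = 0.06) and 0.23 within 3 and 4 (adjusted p = 0.0011). The interaction of -0.31 ± 0.12 missed the threshold (adjusted p = 0.051) and passed it in 9 of 26 alternatives, among them the term for replicates 1 and 2 against 3 and 4 (adjusted p = 0.036) and those without WT normal replicate 4 (adjusted p = 0.029), WT paused replicate 1 (0.043) or 2 (0.027) or KO normal replicate 3 (0.036) or 4 (0.041).

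**Figure D2:**
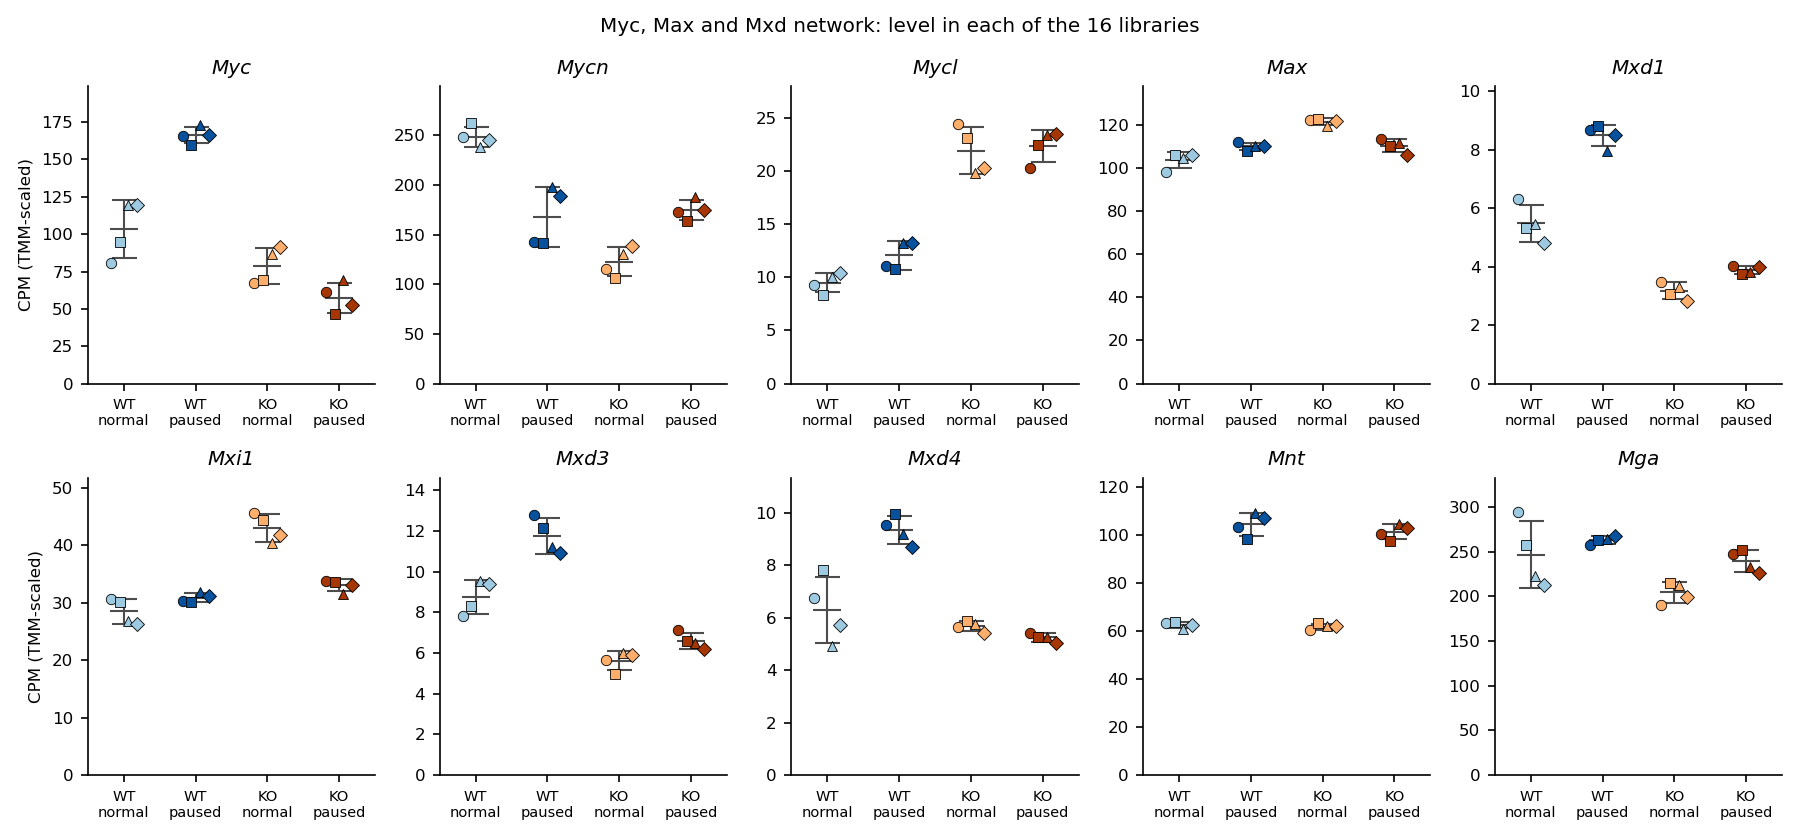
Level of each gene in each of the 16 libraries, in TMM-scaled CPM from 0 (circle, square, triangle and diamond are replicates 1 to 4; horizontal bars give the mean and 1 SD on each side, n = 4). Myc is highest in WT paused (160 to 173 CPM), Mycn in WT normal (238 to 262 CPM) and Mycl in both KO groups, and Mnt has 1 level in normal and another in paused culture.

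Max (ENSMUSG00000059436.13; chromosome 12, 76937269 to 76962201, minus strand), the shared partner of all other members, was highest in KO normal by CPM. Its level was 98.3, 106.2, 104.8 and 106.1 CPM in WT normal and 112, 108, 110.2 and 110.3 CPM in WT paused. KO normal libraries held 122, 123, 119 and 122 CPM and KO paused ones 113, 110.4, 112 and 106 CPM. KO normal was the group that stood above the other 3, whose ranges lay close together. Max was 1.17-fold higher in KO normal than in WT normal (log2 0.23 ± 0.03, adjusted p = 3.8e-06 in edgeR) and fell on pausing in KO cells by 0.14 ± 0.03 on the log2 scale (adjusted p = 0.00078). The interaction was -0.22 ± 0.04 (adjusted p = 0.00059), and under pausing the KO against WT difference was 0.0040 (95% interval -0.06 to 0.07, adjusted p = 0.92; 0.09 with length-scaled TPM, adjusted p = 0.025). The fall in KO cells was relative to TMM scaling: with library totals it was 0.013 (adjusted p = 0.72), and with length-scaled TPM -0.04 (adjusted p = 0.31). The rise of 0.09 ± 0.03 in WT cells (adjusted p = 0.026) was 0.23 with library totals (adjusted p = 1.7e-06) and 0.13 with length-scaled TPM (adjusted p = 0.0025), and was lost in 10 of 19 alternatives, among them those without WT normal replicate 1 (0.06, adjusted p = 0.11), 2 (0.07, adjusted p = 0.079) or 3 (0.07, adjusted p = 0.12) or WT paused replicate 1 (0.07, adjusted p = 0.095). A transcript of 203 bases annotated as a target of nonsense-mediated decay, Max-206, held 7.30% of the summed TPM of Max in WT normal, 8.27% in WT paused, 7.69% in KO normal and 13.9% in KO paused. Max overlaps a same-strand model (Gm47218), and reads of the 2 may be divided between them.

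Levels of different genes were compared per length, as TPM (transcript counts scaled for length and depth) summed over protein-coding transcripts. In WT normal the order was Mycn (124 ± 7.27 TPM, mean ± SD, n = 4), Max (75.6 ± 2.71), Myc (66.9 ± 11.1), Mga (24.1 ± 4.47), Mnt (17.4 ± 0.860), Mxi1 (16.3 ± 1.61), Mxd3 (7.74 ± 0.701), Mycl (3.68 ± 0.409), Mxd4 (2.40 ± 0.447) and Mxd1 (1.53 ± 0.233). The library ranges of Max and Myc overlapped, as did those of Mnt and Mxi1, and all other neighbours in this order were apart. By protein-coding TPM Max was lower in WT normal (72.8 to 79.1) than in the other 3 groups (91.8 to 104 TPM), unlike its order by CPM. In WT paused Myc stood first (131 ± 3.66 TPM), above Mycn (100.4 ± 17.3) and Max (97.6 ± 0.611), which overlapped. Max was first in KO normal (96.4 ± 3.13 TPM), followed by Mycn (66.7 ± 9.79) and Myc (54.8 ± 10.9), whose ranges overlapped. In KO paused the order was Mycn (109 ± 3.94 TPM), Max (101 ± 3.41) and Myc (48.9 ± 7.82), with no overlap. Mnt was the most abundant of the Mxd and Mnt repressors in both paused groups (34.5 ± 1.39 TPM in WT and 34.9 ± 0.301 in KO), and Mxi1 was in KO normal (26.6 ± 0.378 TPM). Mxd1 was the lowest member in every group.

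The make-up of the Myc family differed accordingly. Myc gave 34.3% ± 4.69 of the summed family TPM in WT normal, 55.5% ± 3.67 in WT paused, 41.7% ± 2.19 in KO normal and 28.9% ± 2.76 in KO paused (SD, n = 4). Mycl gave 1.89% ± 0.169 and 2.45% ± 0.123 in the WT groups, and 7.18% ± 1.603 and 6.42% ± 0.687 in the KO groups. The ratio of Mycn to Myc TPM was thus 1.90 in WT normal and 0.764 in WT paused, but 1.23 in KO normal and 2.26 in KO paused. Within the libraries the Myc family exceeded the sum of Mxd1, Mxi1, Mxd3, Mxd4 and Mnt 4.30-fold ± 0.310 in WT normal, 3.15-fold ± 0.234 in WT paused, 2.42-fold ± 0.328 in KO normal and 2.43-fold ± 0.194 in KO paused. The WT normal range of this ratio (3.95 to 4.64) did not overlap that of WT paused (2.95 to 3.41), and the KO ranges overlapped each other (2.09 to 2.76 and 2.24 to 2.70). By TPM, which carries no TMM factors, both sums were higher in paused than in normal culture, without overlap. With library totals in place of TMM the median log2 fold change of all genes was 0.19 in WT and 0.17 in KO pausing. By TMM-scaled CPM the WT mean of Mycn fell from 248 to 168 and that of Myc rose from 104 to 166. The higher family sum in WT cells thus holds for TPM. The mean family sum went from 194 to 237 TPM in WT and from 131 to 168 TPM in KO cells. The Mxd and Mnt sum went from 45.3 to 75.3 TPM in WT and from 53.9 to 69.4 TPM in KO cells. Max stood at 0.389 of the family sum in WT normal and 0.749 in KO normal. These sums and ratios were not tested and concern mRNA, not protein.

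**Figure D3:**
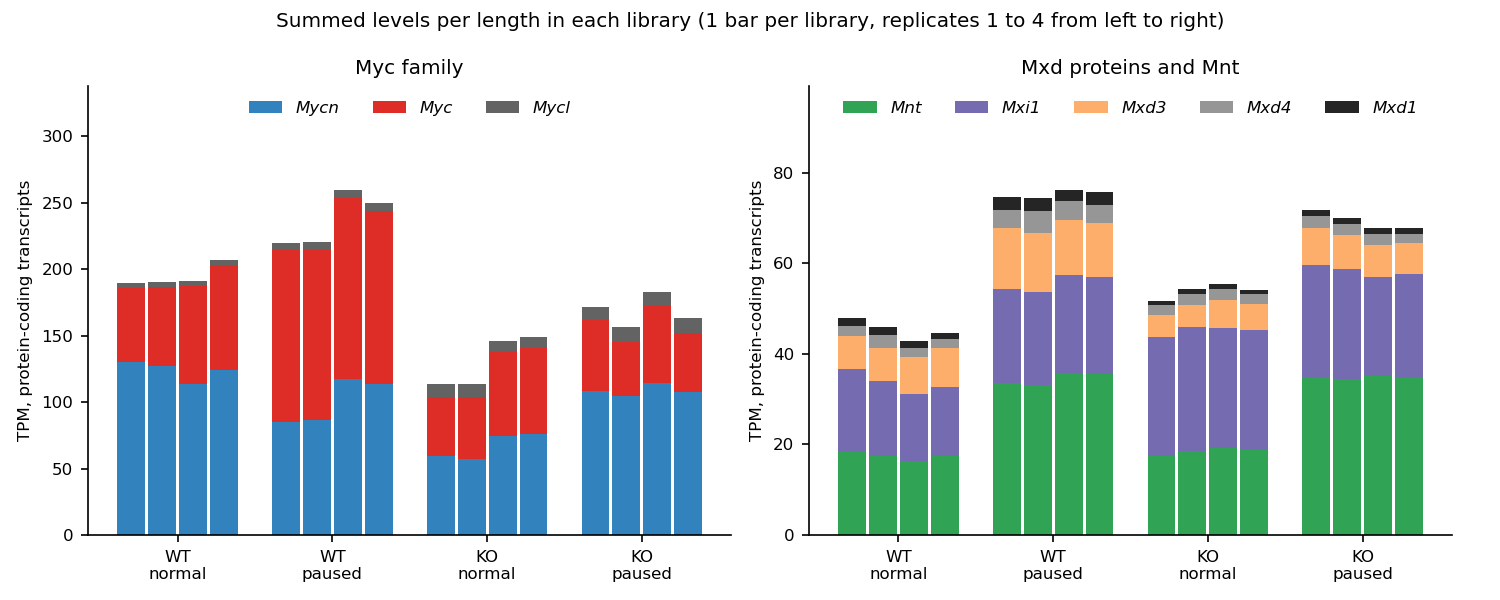
Summed TPM of protein-coding transcripts in each library for the Myc family (left) and the Mxd and Mnt repressors (right), with 1 stacked bar per library and axes from 0. Myc takes 52.1% to 59.1% of the left bars in WT paused and 25.9% to 31.6% in KO paused, and the Mnt segment is larger in paused than in normal culture in both genotypes.

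Mnt (ENSMUSG00000000282.12; chromosome 11, 74830920 to 74845725, plus strand), the widely expressed antagonist of Myc, rose on pausing in both genotypes. Its level was 63.1, 63.8, 60.9 and 62.3 CPM in WT normal and 103, 98.2, 109 and 107 CPM in WT paused. KO libraries gave 60.2, 63.3, 61.9 and 61.9 CPM in normal and 100.1, 97.5, 105 and 103 CPM in paused culture. The paused libraries stood well above the normal ones in each genotype, and the genotypes overlapped in each culture. The rise was 1.67-fold in WT cells (log2 0.74 ± 0.04, adjusted p = 5e-12 in edgeR) and 1.64-fold in KO cells (0.71 ± 0.04, adjusted p = 5.5e-12). The difference of the responses was -0.03 with a 95% interval of -0.13 to 0.07 (adjusted p = 0.70). KO and WT cells differed by -0.02 (adjusted p = 0.69) in normal and -0.04 (adjusted p = 0.29) in paused culture. Mnt gave 38.3% of the summed TPM of the Mxd and Mnt repressors in WT normal and 45.9% in WT paused, and 34.3% and 50.3% in the KO groups.

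Mxi1 (ENSMUSG00000025025.14; chromosome 19, 53310518 to 53375810, plus strand) was higher in KO cells in normal culture and fell there on pausing. WT libraries held 30.6, 30.2, 26.7 and 26.4 CPM in normal and 30.2, 30.2, 31.9 and 31.2 CPM in paused culture. KO libraries held 45.6, 44.4, 40.3 and 41.8 CPM in normal and 33.8, 33.7, 31.6 and 33.2 CPM in paused culture. Every KO normal library stood above all others, and the remaining 3 groups lay between 26.4 and 33.8 CPM. Mxi1 was 1.51-fold higher in KO normal than in WT normal (log2 0.60 ± 0.05, adjusted p = 1.1e-08 in edgeR), and fell on pausing in KO cells by 0.38 ± 0.05 (adjusted p = 3.8e-06). With library totals that fall was smaller, -0.23 (adjusted p = 0.00094). The interaction was -0.50 ± 0.07 (adjusted p = 4e-05). In WT cells the log2 fold change of 0.12 ± 0.05 missed the threshold (adjusted p = 0.065), and passed it without WT normal replicate 1 (0.15, adjusted p = 0.02), with library totals (0.26, adjusted p = 0.00028), with a replicate block (0.12, adjusted p = 0.042) and with a term for replicates 1 and 2 against 3 and 4 (0.12, adjusted p = 0.027). It was -0.0074 within replicates 1 and 2 and 0.24 (adjusted p = 0.00027) within 3 and 4. Under pausing the KO against WT difference was 0.10 (adjusted p = 0.11), called within replicates 1 and 2 (0.16, adjusted p = 0.0073) and in a fit of those groups alone (0.11, adjusted p = 0.017).

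The annotated starts of the leading 2 transcripts of Mxi1 lie 18895 bases apart, and their levels did not differ alike between genotypes. Mxi1-201, from the first site, was at 2.81, 1.73, 1.83 and 1.97 TPM in WT normal and 3.53, 3.96, 3.34 and 4.21 TPM in WT paused. It was at 8.48, 7.80, 6.95 and 6.47 TPM in KO normal and 6.15, 7.33, 5.96 and 7.48 TPM in KO paused. Every KO library was above every WT library, and WT paused above WT normal. Mxi1-203, from the second site, averaged 12.9, 15.7, 17.0 and 14.6 TPM in the same order of groups. Mxi1-201 thus made up 12.1% and 17.7% of the summed TPM of Mxi1 in the WT groups, and 27.5% and 28.6% in the KO groups. These shares are estimates of how reads divide between transcripts and were not tested. The windows around both sites are printed to show that these promoters have separate sequences. Each runs from 250 bases before to 50 bases after the RefSeq start site, with the bases from the start site on in capitals (RefSeq, GRCm38.p6, chr19:53310256-53310555 and chr19:53329163-53329462, plus strand). The annotated start of Mxi1-201 lies 12 bases from the first RefSeq site, and that of Mxi1-203 at the second site.
Mxi1 first site: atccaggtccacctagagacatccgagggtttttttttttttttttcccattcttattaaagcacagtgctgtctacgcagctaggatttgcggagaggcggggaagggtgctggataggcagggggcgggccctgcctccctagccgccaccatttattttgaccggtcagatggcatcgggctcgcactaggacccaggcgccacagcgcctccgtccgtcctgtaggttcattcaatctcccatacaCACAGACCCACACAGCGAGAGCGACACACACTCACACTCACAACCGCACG
Mxi1 second site: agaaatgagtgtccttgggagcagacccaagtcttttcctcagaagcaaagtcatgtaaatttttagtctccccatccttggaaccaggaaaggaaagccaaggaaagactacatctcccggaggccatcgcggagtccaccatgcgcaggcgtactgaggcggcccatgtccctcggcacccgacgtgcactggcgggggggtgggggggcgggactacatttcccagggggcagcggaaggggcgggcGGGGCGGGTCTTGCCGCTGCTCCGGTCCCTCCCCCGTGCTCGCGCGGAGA
The first window is 56% and the second 63% G or C, and neither holds a CACGTG on either strand. Genes on the opposite strand, Gm10197 and AC133451.2, overlap Mxi1. Whether the counting used strand is not given in the sources used here, so reads of such pairs cannot be told apart.

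**Figure D4:**
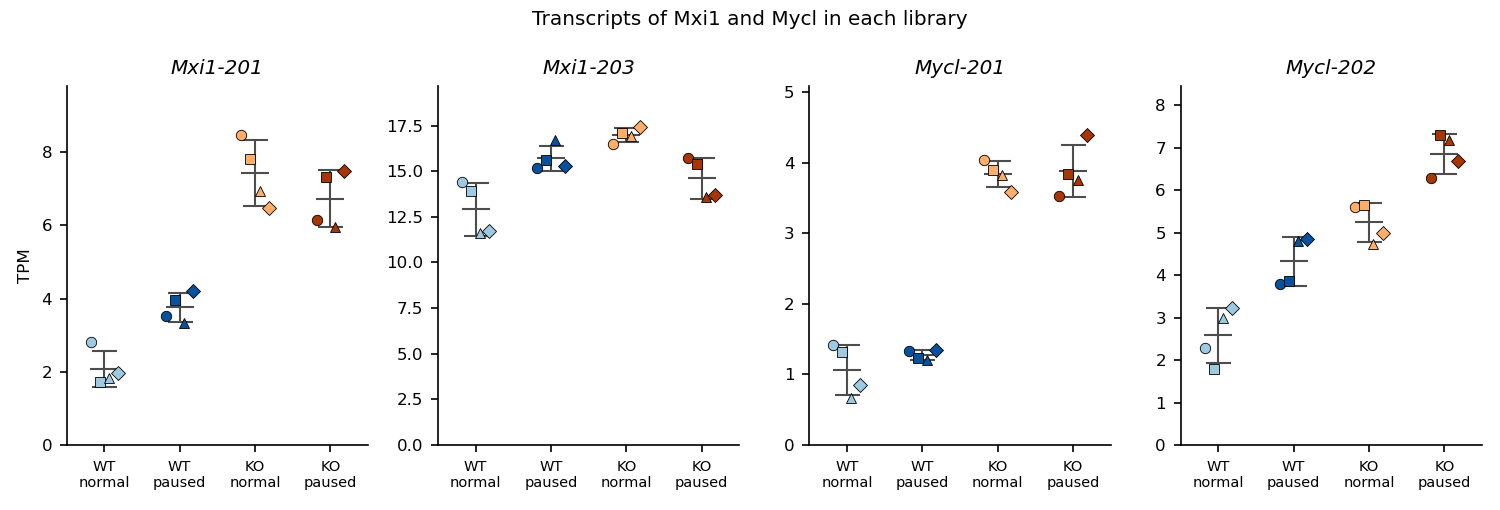
Estimated TPM of 2 transcripts of Mxi1 and 2 of Mycl in each library (symbols as replicates 1 to 4; bars are the mean and 1 SD on each side, n = 4; axes from 0). Mxi1-201 and Mycl-201 separate KO from WT libraries, whereas Mxi1-203 lies between 11.6 and 17.4 TPM in all 16.

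The transcripts of Mycl also divided unequally. Mycl-201 averaged 1.06 TPM in WT normal and 1.28 TPM in WT paused, against 3.84 and 3.88 TPM in KO normal and paused, and its share of Mycl was 26.8%, 21.1%, 39.4% and 34.2%. Mycl-202 averaged 2.58, 4.33, 5.24 and 6.86 TPM in the same order. Both were thus higher in KO than in WT normal libraries, Mycl-201 by the larger ratio.

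Mxd1, Mxd3 and Mxd4, the least abundant repressors, rose on pausing in WT cells and were lower in KO than in WT paused cells. Mxd1 (ENSMUSG00000001156.9; chromosome 6, 86647042 to 86669161, minus strand), known to be induced as cells differentiate, was at 6.31, 5.33, 5.47 and 4.80 CPM in WT normal and 8.69, 8.80, 7.96 and 8.50 CPM in WT paused. KO libraries held 3.49, 3.06, 3.32 and 2.83 CPM in normal and 4.02, 3.75, 3.81 and 3.98 CPM in paused culture. Pausing raised Mxd1 in both genotypes with no overlap, and KO libraries were below WT libraries throughout. The rise was 0.63 ± 0.08 in WT cells (adjusted p = 2.9e-06 in edgeR) and 0.29 ± 0.09 in KO cells (adjusted p = 0.0066). KO cells held 1.73-fold less Mxd1 mRNA in normal culture (log2 -0.79 ± 0.09, adjusted p = 2.1e-07) and 2.18-fold less under pausing (-1.13 ± 0.09, adjusted p = 1.6e-09). The interaction of -0.34 ± 0.12 (adjusted p = 0.033) did not pass in 13 of 26 alternatives, 10 of which left out a library: WT normal replicate 2, 3 or 4, WT paused replicate 1 or 2, KO normal replicate 1 or 3 or KO paused replicate 2, 3 or 4 (log2 -0.34 to -0.28, adjusted p = 0.05 to 0.092).

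Mxd3 (ENSMUSG00000021485.14; chromosome 13, 55325168 to 55329823, minus strand), known to be expressed in proliferating cells in S phase, was at 7.83, 8.31, 9.55 and 9.38 CPM in WT normal and 12.8, 12.2, 11.2 and 10.9 CPM in WT paused. In the KO groups it was at 5.66, 4.96, 5.98 and 5.89 CPM and at 7.12, 6.59, 6.47 and 6.21 CPM. It rose on pausing by 0.42 ± 0.08 in WT cells (adjusted p = 0.00015 in edgeR), being 0.63 within replicates 1 and 2 and 0.22 within 3 and 4. In KO cells it rose by 0.23 ± 0.08 (adjusted p = 0.019), a call lost without KO normal replicate 2 (0.18, adjusted p = 0.074) or KO paused replicate 1 (0.20, adjusted p = 0.06) and within replicates 3 and 4 (0.10, adjusted p = 0.26). The responses differed by -0.19 (adjusted p = 0.19, 95% interval -0.42 to 0.03). KO cells held less Mxd3 mRNA in both cultures, by -0.64 ± 0.08 (adjusted p = 1.4e-06) and -0.83 ± 0.08 (adjusted p = 4.5e-08) on the log2 scale. Mxd3 overlaps the protein-coding gene Prelid1 on the opposite strand, so its values are uncertain by the reads of that overlap.

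Mxd4 (ENSMUSG00000037235.13; chromosome 5, 34173883 to 34187720, minus strand) was at 6.77, 7.82, 4.91 and 5.73 CPM in WT normal and 9.52, 9.96, 9.19 and 8.69 CPM in WT paused. The KO groups held 5.66, 5.88, 5.77 and 5.42 CPM and 5.42, 5.27, 5.28 and 5.03 CPM. WT paused stood apart above the other 3 groups. Mxd4 rose 1.48-fold on pausing in WT cells (log2 0.57 ± 0.10, adjusted p = 9.6e-05 in edgeR), and its log2 fold change in KO cells was -0.11 (adjusted p = 0.35). The responses differed by -0.68 ± 0.15 (adjusted p = 0.0011). Under pausing KO cells held 1.78-fold less (-0.83 ± 0.10, adjusted p = 1.1e-06). In normal culture the difference of -0.15 (adjusted p = 0.21) was called without WT normal replicate 3 (-0.27, adjusted p = 0.014) and within replicates 1 and 2 (-0.34, adjusted p = 0.0053). An antisense model, Gm42846, overlaps Mxd4.

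Mga (ENSMUSG00000033943.15; chromosome 2, 119897228 to 119969581, plus strand) spread widely in WT normal. Its level there was 294, 257, 223 and 212 CPM, and 257, 263, 264 and 268 CPM in WT paused. KO libraries held 190.5, 215, 212 and 199.7 CPM in normal and 247, 252, 232 and 226 CPM in paused culture. The WT groups overlapped, and all KO paused libraries were above all KO normal ones. Mga rose on pausing in KO cells by 0.23 ± 0.08 (adjusted p = 0.015 in edgeR), a call lost without KO normal replicate 1 (0.19, adjusted p = 0.052). In WT cells the log2 fold change was 0.09 (adjusted p = 0.32), being -0.08 (adjusted p = 0.32) within replicates 1 and 2 and 0.28 (adjusted p = 1.4e-05) within 3 and 4, and 0.19 (adjusted p = 0.0089) without WT normal replicate 1. With library totals it was 0.24 (adjusted p = 0.02). The interaction was 0.14 (adjusted p = 0.34). Mga was lower in KO than in WT normal cells by -0.27 ± 0.08 (adjusted p = 0.0051), which was -0.44 within replicates 1 and 2 and -0.08 (adjusted p = 0.076) within 3 and 4. Under pausing the groups did not overlap, and the difference of -0.14 missed the threshold (adjusted p = 0.13). It passed within replicates 3 and 4 (-0.21, adjusted p = 0.00025) and in a fit of the paused groups alone (-0.12, adjusted p = 0.014). The short transcripts Mga-208 and Mga-209, annotated as not coding, held 17.6% and 21.4% of the summed TPM of Mga in WT normal.

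E-boxes in the members' own promoters are shown because the network is known to bind its own genes. RefSeq promoter windows of 300 bases were found for 9 of the 10 members (all but Myc), 11 windows in all. Of the 9 genes, 3 had a CACGTG (the letters read the same on both strands). Among genes tested with a window, 10.7% had one. The sites are printed 5′ to 3′ on the gene's strand with CACGTG in capitals. The site of Max begins 3 bases before the start site and spans it. Those of Mxd4 and Mnt begin 219 and 123 bases before it.
Max: gcccggtCACGTGttagggg
Mxd4: gggccacCACGTGctgttgc
Mnt: cccaagcCACGTGtgcgcgc
The windows are chr12:76962199-76962498, chr5:34187661-34187960 and chr11:74830674-74830973. On pausing all 3 genes rose in WT cells (0.09 for Max, 0.57 for Mxd4 and 0.74 for Mnt). The rise of Max was lost in 10 of 19 alternatives. Mycl, Mxd1 and Mxd3, whose windows held no CACGTG, also rose, as did Myc, whose promoter was not examined. Of the other members with a window but no CACGTG, Mycn fell (-0.56), and Mxi1 and Mga were not called. In KO cells Mnt rose, Mxd4 was not called and Max fell, though its log2 fold change was 0.013, and not called, with library totals. A match is a description of letters and was not tested as a binding site.

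Since KO cells are labelled as lacking Dgcr8, matches to microRNA seeds in the members' 3′ UTRs are given with the mature sequences. The seed (bases 2 to 8) is in capitals, and sequences are from RefSeq (GRCm38.p6).
mmu-miR-294-3p: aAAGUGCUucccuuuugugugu
mmu-miR-302b-3p: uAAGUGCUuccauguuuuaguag
mmu-miR-17-5p: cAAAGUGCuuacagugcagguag
mmu-let-7a-5p: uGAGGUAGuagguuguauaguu
mmu-miR-34a-5p: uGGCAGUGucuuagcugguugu
The first pair share 1 seed and stand for the families most abundant in ESCs, let-7 for differentiated cells, and miR-34a for the family known to bind Mycn and Myc. The letters searched on the mRNA strand were GCACTT for miR-294 and miR-302 (bases 2 to 7), GCACTTT for miR-17, CTACCTC for let-7 and CACTGCC for miR-34, each GCACTTT being also a GCACTT. Among 16681 tested genes with an annotated 3′ UTR, 31.8%, 13.4%, 10.4% and 16.4% had these in the longest UTR. MicroRNAs were not measured in these libraries.

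Of the 10 members, 7 had a GCACTT in the UTR of their most abundant coding transcript: Mycn 1 in 913 bases, Mnt 2 in 2405, Mga 2 in 2784, Mxi1 1 in 1418, Mxd1 1 in 3829, Mxd3 1 in 615 and Mxd4 1 in 3105. Among genes with longest UTRs of like length the share with a GCACTT was 16% for Mxd3, 22.9% for Mycn, 49.6% for Mnt and 58.7% for Mxd4. It was 65.9% for Mxd1, 68.6% for Mxi1 and 73.5% for Mga, the last 2 from a longer annotated form. In the same UTRs GCACTTT was found in Mycn and Mnt (8.05% and 20% of genes of like length). CACTGCC was found in Mycn, Mnt and Mxd4 (11.9%, 25% and 29.5%), and CTACCTC in Mxd1 (21.1%). Myc, Mycl and Max had none of the 4 matches. The sites of Mycn, which was lower in KO normal cells, are printed with the match in capitals. For Mxi1, which was higher in KO normal cells, 1 of the 4 GCACTT in the UTR of its longest annotated form (4074 bases) is printed. That form also holds 1 CACTGCC, and 1 of its GCACTT is a GCACTTT.
Mycn GCACTTT at base 861 of the UTR: accttagaGCACTTTgaaatacc
Mycn CACTGCC at base 21 of the UTR: cggacagtCACTGCCactttgca
Mxi1 GCACTT at base 1139 of the UTR of its longest annotated form: tacgttcaGCACTTgtctcatt
Of the 7 genes with a GCACTT, 1 (Mxi1) was higher in KO than in WT normal cells, 4 (Mycn, Mxd1, Mxd3 and Mga) were lower and 2 (Mnt and Mxd4) were not called. Of the 3 without, Mycl and Max were higher and Myc lower. In that comparison 34.1% of all genes tested were higher and 34.1% lower. A link between match and change was not tested.

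The genes most like Myc over the 16 libraries, by Pearson correlation of log2 CPM among 9275 protein-coding genes, were Pou3f1 (r = 0.976), Sf3a2 (0.976), Ryr3 (0.976), Nlrc4 (0.973) and Daxx (0.973). Pou3f1, a POU factor of formative ESCs, was at 14.1 ± 2.79 CPM in WT normal, 26.1 ± 4.15 in WT paused, 7.38 ± 0.768 in KO normal and 4.43 ± 0.968 in KO paused. Those most like Mycn were Fgf17 (0.926), Dnajc7 (0.918), Id2 (0.916), Cr1l (0.913) and Btrc (0.910). The inhibitor of bHLH factors Id2 was at 32.1 ± 4.47, 21.4 ± 3.46, 7.54 ± 2.57 and 15.99 ± 1.29 CPM in the same order of groups. Myc and Mycn themselves correlated by 0.193. These correlations are over libraries of 4 groups that differ, and are given as descriptions.

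The 3 genes of the neighbouring MLX branch (Mlx, Mlxip and Mlxipl), whose products bind related sites and sense glucose metabolites, all changed on pausing in each genotype. For comparison, 60.7% of all genes tested were called in WT cells (33.3% higher, 27.5% lower) and 67.2% in KO cells (34.4% and 32.8%). Mlx, the partner shared by some Mxd proteins and Mnt, fell from 43.5 ± 1.39 to 29.1 ± 0.951 CPM in WT cells (log2 -0.58 ± 0.04, adjusted p = 8.6e-10 in edgeR) and from 40.1 ± 1.19 to 29.8 ± 1.34 CPM in KO cells (-0.43 ± 0.04, adjusted p = 3.8e-08). Mlxip (MondoA) rose by 0.16 ± 0.04 in WT cells and fell by 0.31 ± 0.04 in KO cells, with an interaction of -0.47 ± 0.05 (adjusted p = 1.6e-06). Among 9 targets of MondoA and ChREBP, 1 rose and 8 fell in WT cells and 2 rose and 5 fell in KO cells, the riser in WT cells being Txnip, a brake on glucose uptake (1.25 ± 0.06, adjusted p = 1.8e-12 in edgeR).

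Counts of the lists below are to be read against the 60.7% of all genes called on pausing in WT cells (33.3% higher, 27.5% lower) and the 67.2% in KO cells (34.4% and 32.8%). The corepressors that Mxd and Mnt proteins recruit were called in both directions, as genes in general were. Of 16 SIN3 and NCOR components, 8 rose and 5 fell on pausing in WT cells, and 5 rose and 7 fell in KO cells (medians 0.08 and 0.00). Sin3b, a scaffold of the complex, was at 76.7 ± 5.48 CPM in WT normal, 86.3 ± 2.94 in WT paused, 72.5 ± 2.34 in KO normal and 130 ± 4.66 in KO paused. It rose by 0.84 ± 0.05 in KO cells (adjusted p = 1.6e-11 in edgeR), and the interaction was 0.67 ± 0.06 (adjusted p = 2.9e-07). Of 18 Myc coactivators, 5 rose and 7 fell in WT cells and 6 rose and 10 fell in KO cells. Ruvbl1, an ATPase of chromatin complexes that Myc recruits, fell by 0.74 ± 0.05 in WT and by 0.82 ± 0.05 in KO cells (adjusted p = 7.5e-10 and 1.8e-10).

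Of 17 proteins known to bind Myc mRNA, 4 rose and 12 fell on pausing in WT cells and 2 rose and 12 fell in KO cells, with medians of -0.34 and -0.33 against 0.04 and 0.02 for all genes. Zfp36, which promotes decay of AU-rich mRNAs, rose by 1.44 ± 0.06 in WT cells (adjusted p = 4.9e-13 in edgeR), and the response differed in KO cells (interaction -1.34 ± 0.08, adjusted p = 1.1e-09). Lin28b, which binds let-7 precursors and many mRNAs, fell by 0.69 ± 0.08 in WT and by 1.11 ± 0.08 in KO cells. Of 21 transcriptional regulators of Myc, 10 rose and 5 fell in WT cells and 9 rose and 6 fell in KO cells. Klf4 rose by 1.14 ± 0.04 and by 0.72 ± 0.04, whereas Lef1, a Wnt effector, fell by 2.04 ± 0.27 in KO cells (adjusted p = 8.2e-06) with an interaction of -2.19 ± 0.35 (adjusted p = 0.00018).

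Factors that control the stability of Myc protein were called in both directions. Of 13 that promote its destruction, 4 rose and 4 fell on pausing in WT cells and 3 rose and 6 fell in KO cells. Skp2, a ubiquitin ligase subunit, fell by 0.66 ± 0.04 and by 0.79 ± 0.04 (adjusted p = 1.2e-10 and 8.2e-12 in edgeR). Of 15 that stabilise it, 3 rose and 7 fell in WT cells and 3 rose and 11 fell in KO cells. Pim1, a kinase, rose by 0.93 ± 0.04 in WT and by 0.59 ± 0.04 in KO cells. Protein levels were not measured here. Of MIZ1 and 7 other partners, 1 rose and 4 fell in WT cells and 1 rose and 3 fell in KO cells. Tbp, the TATA-binding protein, fell by 0.25 ± 0.05 in WT cells.

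Among 77 genes known to be activated by Myc, chiefly nucleolar and biosynthetic genes, 64 fell and 4 rose on pausing in WT cells, and 71 fell and 3 rose in KO cells. Their median was -0.47 in WT and -0.56 in KO cells, against 0.04 and 0.02 for all genes tested. In paused WT cells, where these genes were lower, Myc mRNA was higher and Mycn mRNA lower than in normal culture. In paused KO cells they were lower too, while Myc mRNA was lower and Mycn mRNA higher. The summed TPM of the Myc family was higher in paused culture in both genotypes (194 to 237 in WT, 131 to 168 in KO). A link between these levels was not tested. The nucleoside diphosphate kinase gene Nme1 fell from 139 ± 3.32 to 61.6 ± 2.00 CPM in WT cells (log2 -1.18 ± 0.06, adjusted p = 6.7e-12 in edgeR) and from 95.3 ± 5.98 to 35.0 ± 3.55 CPM in KO cells (-1.45 ± 0.06, adjusted p = 4.4e-13). Nop16, a nucleolar protein gene, fell from 79.4 ± 4.30 to 38.0 ± 0.876 CPM in WT cells (-1.06 ± 0.04, adjusted p = 3.3e-13). Hspd1, a mitochondrial chaperone gene, fell from 1642 ± 69.8 to 804 ± 12.3 CPM (-1.03 ± 0.04, adjusted p = 1.1e-13). Ldha, for lactate dehydrogenase, had the largest fall in the list (-2.28 ± 0.14 in WT and -3.24 ± 0.15 in KO cells), but it has many near-identical pseudogenes and its value is uncertain. The interaction was negative for 38 and positive for 4 of the 77, against 24.5% and 17.4% of all genes. Without WT normal replicate 2 these counts were 23 and 7, and without WT normal replicate 3 there were 10 positive ones. The negative ones were led by Tfrc, the transferrin receptor gene (-1.32 ± 0.13, adjusted p = 8.5e-07), and Ccnd2, for cyclin D2 (-1.23 ± 0.19, adjusted p = 6.9e-05). Between genotypes 23 were higher and 34 lower in KO cells in normal culture, and 21 higher and 46 lower under pausing. Over all genes tested, 34.1% were higher and 34.1% lower in normal culture, and 30.8% higher and 34.5% lower under pausing. A CACGTG was found in the promoters of 20 of the 69 with a window. Of these 20, 18 fell on pausing in WT cells, as did 39 of the other 49.

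Of 19 genes known to be repressed by Myc, 8 rose and 6 fell on pausing in WT cells and 5 rose and 7 fell in KO cells. Cdkn1b, the gene of the cell cycle inhibitor p27, rose by 1.20 ± 0.06 in WT and by 0.90 ± 0.06 in KO cells (adjusted p = 1.4e-11 and 3.2e-10 in edgeR). Hbp1, for a repressor of cell cycle genes, rose by 1.29 ± 0.06 and by 1.27 ± 0.06. Cdkn1c, for p57, fell by 0.87 ± 0.17 and by 1.52 ± 0.20. The list thus held members that moved far in each direction.

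The PRC1.6 complex that Mga and Max belong to was measured through 15 further subunits, of which 4 rose and 8 fell in WT cells and 6 rose and 7 fell in KO cells. E2f6, which like Mga guides the complex to promoters, rose by 0.75 ± 0.06 in WT cells (adjusted p = 1.3e-09 in edgeR) and had a smaller response in KO cells (interaction -0.35 ± 0.08, adjusted p = 0.0015). Its partner Tfdp1 fell by 0.61 ± 0.05 and by 0.93 ± 0.05. Of 20 germline genes known to be repressed with Max and Mga in ESCs, 14 rose and 1 fell on pausing in WT cells, and 13 rose and 3 fell in KO cells, with medians of 0.62 and 0.54 against 0.04 and 0.02 for all genes. The 1 that fell in WT cells became 2 without WT normal replicate 3 and 0 without WT paused replicate 4. Smc1b, a cohesin subunit of meiosis, rose from 16.1 ± 4.13 to 40.6 ± 2.40 CPM in WT cells (1.33 ± 0.17, adjusted p = 4.8e-06). Dazl, an RNA-binding protein of germ cells, rose from 12.8 ± 1.10 to 22.3 ± 4.48 CPM in WT cells (0.80 ± 0.12) and from 2.72 ± 0.341 to 9.53 ± 1.00 CPM in KO cells (1.81 ± 0.14, adjusted p = 2.4e-09). Between genotypes 12 of the 20 were lower and 3 higher in KO cells in normal culture, and 11 lower and 3 higher under pausing. The shares over all genes tested were 34.1% lower and 34.1% higher in normal culture, and 34.5% lower and 30.8% higher under pausing. Hormad1, of the meiotic chromosome axis, was lower in KO normal cells by -3.19 ± 0.13, while Stra8, an inducer of meiosis, was higher by 2.81 ± 0.21.

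The E-box was frequent in the promoters of these germline genes. Of the 19 with a window, 11 had a CACGTG (57.9%, against 10.7% of the genes tested). Of these 11, 9 rose and none fell on pausing in WT cells, and 8 rose and 1 fell in KO cells, while of the other 8, 4 rose and 1 fell in WT cells and 4 rose and 2 fell in KO cells. Sites of 3 genes are printed with CACGTG in capitals, for comparison with those of the members above.
Stag3, 170 bases before the start site: tggagccCACGTGacaggac
Stk31, 55 bases before the start site: ggccaccCACGTGaccaggg
Hormad1, 57 bases before the start site: ggtgcgcCACGTGccagtga
The windows (RefSeq, GRCm38.p6, plus strand) are chr5:138280259-138280558, chr6:49395289-49395588 and chr3:95559427-95559726.
Stag3, another meiotic cohesin subunit, rose by 0.81 ± 0.07 in WT cells (adjusted p = 4.5e-08), and Stk31 by 1.01 ± 0.06 in KO cells (adjusted p = 7.5e-11). Hormad1 was not called in WT cells (-0.0062, adjusted p = 0.97) and fell by 0.63 ± 0.14 in KO cells (adjusted p = 0.00092).

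**Figure D5:**
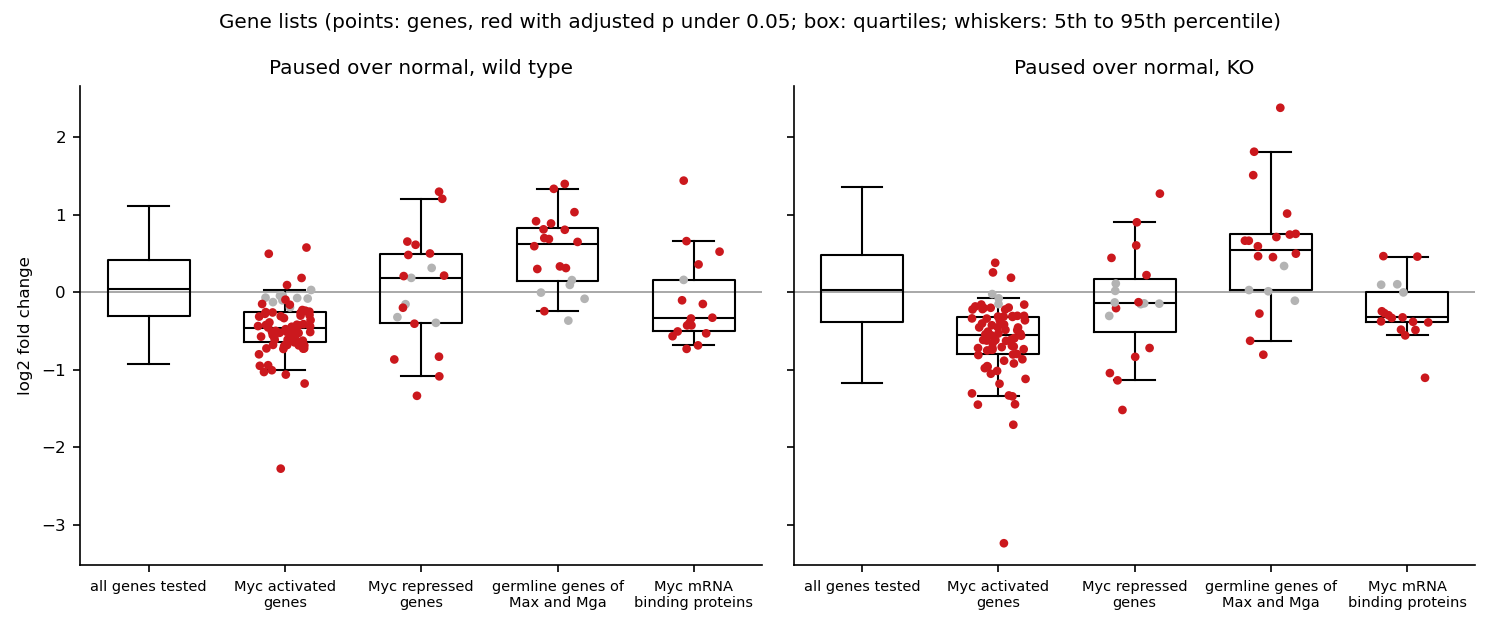
Log2 fold change of paused over normal culture for all genes tested and for the genes of 4 lists, in WT (left) and KO cells (right). Points are genes, red with an adjusted p under 0.05, boxes give quartiles and whiskers the 5th to 95th percentile. The box of Myc activated genes lies below 0 in both genotypes (medians -0.47 and -0.56) and that of the germline genes above 0 (0.62 and 0.54).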

How the data were processed

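Poly(A) RNA of mouse ESCs was measured in 16 libraries, from 800000 cells and 1 µg of total RNA per sample, per the labels. The authors ran kallisto on GRCm38, per the submitters' processing notes; its version is not given in the sources used here. Each transcript has an estimated count and a TPM in the deposited tables, per the file headers. Transcripts were matched to GENCODE M21 (116728 of 118489); the 1761 others held 0.656% to 0.712% of the counts and stayed out. Transcript values were added up into 35968 genes, rounded, filtered with filterByExpr (minimum count 10) and scaled by TMM (factors 0.933 to 1.07). The test was edgeR 4.0.16's robust quasi-likelihood F test in R 4.3.3, with 1 mean per group over all 16 libraries (biological coefficient of variation 0.0852), two-sided, adjusted by Benjamini-Hochberg over 18944 genes in each of 5 contrasts, with a threshold of 0.05. SE is the absolute log2 fold change over the square root of F, and 95% intervals rest on it. The script recovered seeded changes on simulated data.

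All 10 members are named. From the 21 lists, the text names genes among the 4 largest changes per contrast whose mean log2 CPM reached 3, and the 5 genes most correlated with Myc and with Mycn. Members and lists were chosen with earlier results of these data known. Alternatives were DESeq2 1.42.0, RLE factors, library totals, no filter, only the groups compared, a replicate block, a term for replicates 1 and 2 against 3 and 4, each of these pairs alone, counts from length-scaled TPM, protein-coding transcripts only, and leaving out each library. The depth of 88377380 to 116646028 counts gave 264 or more counts for every member in every library. One check gene of the lists, for the X chromosome, was not analysed here.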

Additional observations from a re-analysis of the deposited data

Results flagged for a closer look

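Outlying libraries were looked for in each of the 40 sets of 4 libraries (10 members in 4 groups), and 0 were found. The responses of 6 members to pausing differed between the genotypes by the interaction in edgeR. Myc had a response that was lower in KO cells by -1.13 on the log2 scale (rise in WT, fall in KO). Mycn had one that was higher by 1.07 (fall in WT, rise in KO). The response of Max was lower by -0.22, that of Mxi1 by -0.50, that of Mxd4 by -0.68 and that of Mxd1 by -0.34. The interactions of Myc, Mycn, Max, Mxi1 and Mxd4 passed the threshold in all 26 alternatives run, and that of Mxd1 in 13 of 26. In normal culture the genotypes already differed for Myc, Mycn, Max, Mxd1 and Mxi1, so the interaction compares changes from unequal starting levels.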

How the results depend on the processing

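No count of called genes or called members moved by more than 1.5 times in any of the 19 alternatives per contrast (26 for the interaction). Of 140 counts of list genes called, 46 moved by more than that in at least 1 alternative, most of them counts under 10. Those of Myc activated genes in the interaction ranged from 23 to 41 negative and 4 to 10 positive, and germline genes lower in WT pausing from 0 to 2. Of 50 member values, 28 kept direction and call under all alternatives. Over 1020 combinations 930 kept both, 39 lost the call, 27 gained it and 24 turned direction. Within replicates 1 and 2 the turned values were Mxi1 (-0.0074) and Mga (-0.084) in WT pausing, Mycl (-0.16) in KO pausing and Mnt (0.0094) in the interaction. Within replicates 3 and 4 they were Mga in the interaction (-0.13), Mxd4 (0.071) and Mnt (0.0020) in KO against WT normal, and Mycn (-0.089) and Max (-0.0094) under pausing. With library totals Max (0.013) and Mxd4 (0.037) turned in KO pausing. Protein-coding transcripts alone turned Mnt in the interaction (0.032) and Max in KO against WT paused (-0.0057). Mnt in KO against WT normal turned without a filter (0.0074) and with length-scaled TPM (0.031). Leaving out 1 library gave -0.014 to 0.084 for Mycl in KO pausing, -0.056 to 0.026 for Mnt in the interaction, and -0.014 to 0.15 for Mycn and -0.0045 to 0.030 for Max in KO against WT paused. Of these only Max in KO pausing was called in the first place. The cause was not tested.

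Replicate numbers did not meet the rule for pairing: same-numbered libraries correlated by -0.27 to 0.46 in their deviations from the group means, and in no contrast did every library match its own number best. With a replicate block 11601 genes and 9 members were called in WT pausing, 12780 and 8 in KO pausing, 8090 and 6 in the interaction, 13013 and 8 in KO against WT normal, and 12441 and 5 under pausing. A term for replicates 1 and 2 against 3 and 4 gave 11879, 13001, 8572, 13223 and 12679 genes and 9, 8, 7, 8 and 5 members in the same order. In KO paused, where replicates 1 and 3 stood apart from 2 and 4, this term and the fits within these pairs do not follow the split. Depth limits the members little; the division of reads between transcripts is an estimate.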
